A study of Mus musculus with 9 samples.

Results

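The genes described here are 10 genes of the TREM2 receptor and of the lipid-associated macrophage, the state in which a macrophage takes up, stores and exports lipid: Trem2, Tyrobp, Gpnmb, Spp1, Apoe, Lpl, Cd9, Fabp5, Lgals3 and Plin2. They were chosen by their symbols, with earlier results of these data known. All 10 were found among the 18349 genes listed in 9 RNA-Seq libraries of the mouse iris. Each library pooled 3 irises, and each of 3 groups had 3 libraries. Sham VEGFR3 fl/fl mice received PBS on the cornea at 6 weeks of age, whereas injured VEGFR3 fl/fl mice received corneal alkali injury (CAI), a burn made by holding filter paper soaked in alkali (0.5 µL of 1 M sodium hydroxide) against the cornea for 60 seconds. Injured VEGFR3 iLECko mice were VEGFR3 fl/fl;Prox1-CreERT2 littermates with the same injury, in which tamoxifen removes VEGFR3 from cells that express Prox1, a transcription factor of lymphatic endothelium. The methods state that control littermates received the same tamoxifen as the iLECko mice and that all mice were C57BL/6J, of both sexes. Tamoxifen was injected at 80 mg/kg from day 13 to day 17 after CAI, and irises were taken at 10 weeks of age. The comparisons ask how CAI, and the loss of lymphatic VEGFR3 after CAI, changed the RNA of the iris.

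TREM2 is a surface receptor of macrophages and microglia that binds lipids, lipoproteins and cell debris. It has no signalling tail of its own and signals through the adapter TYROBP, which recruits the kinase SYK. In tissues that break down, macrophages that have taken up lipid carry a shared set of transcripts downstream of or parallel to this receptor, which includes apolipoprotein E, lipoprotein lipase, a fatty acid chaperone, a lipid droplet coat protein, galectin-3, osteopontin, CD9 and GPNMB. Several of these proteins are also made by cells that are not macrophages. GPNMB is also a protein of pigment granules, and the iris is a pigmented tissue.

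Total counts per library ranged from 16617187 to 18306359. All 10 genes had at least 124 counts in every library, so none entered the tests through 1 group alone. Flt4, which encodes VEGFR3, was not lower in the libraries labelled VEGFR3 iLECko. It had 27.9, 21.0 and 27.4 CPM (the count as a share of its library's total, with the total scaled by a TMM factor) there, against 16.8, 20.7 and 23.0 CPM in the injured VEGFR3 fl/fl libraries, with a log2 fold change of 0.34 ± 0.15 (SE, edgeR adjusted p = 0.200). Gene totals do not resolve the deleted part of the gene, and cells without Prox1 also express Flt4, so the genotype is written below as labelled. The genotype tags of replicates 2 and 3 of that group name another VEGFR number, and their titles and descriptions were followed. The summed level of 4 Y-linked genes was 51.1 to 167 CPM in Sham, 151, 136 and 0.804 CPM in injured VEGFR3 fl/fl replicates 1, 2 and 3, and 0.736 to 1.11 CPM in the libraries labelled iLECko. The Y-linked level of the pools thus moved with the label, and values that bear on it are given beside that comparison.

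The 10 genes lie on 8 chromosomes of the GRCm38 assembly and are all annotated as protein coding. Trem2 spans chr17:48346401-48354147 (plus strand), Gpnmb chr6:49036546-49070929 (plus strand) and Spp1 chr5:104435118-104441050 (plus strand). The others span chr7:30413760-30417585 (Tyrobp, plus strand), chr7:19696109-19699188 (Apoe, minus strand), chr8:68880491-68907448 (Lpl, plus strand), chr6:125460266-125494791 (Cd9, minus strand), chr3:10012548-10016607 (Fabp5, plus strand), chr14:47367751-47386160 (Lgals3, plus strand) and chr4:86648386-86670060 (Plin2, minus strand). The 250 bases upstream of the RefSeq start of Trem2, Gpnmb and Spp1 are shown because these genes behaved differently in the iris: Trem2 rose after CAI and came just short of the test in the libraries labelled iLECko, Spp1 rose and did not follow Trem2 between libraries, and Gpnmb did not pass the test in any comparison. Sequences are from RefSeq (GRCm38.p6), read 5′ to 3′ on the strand of the gene, with GAGGAA, the core letters bound by the macrophage factor PU.1, in capitals on either strand.
Trem2, chr17:48346151-48346400, plus strand: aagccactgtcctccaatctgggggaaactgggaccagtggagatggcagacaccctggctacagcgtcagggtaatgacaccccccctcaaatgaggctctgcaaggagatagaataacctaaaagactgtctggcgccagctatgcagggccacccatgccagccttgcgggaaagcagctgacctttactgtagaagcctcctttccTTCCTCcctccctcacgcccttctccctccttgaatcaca
Gpnmb, chr6:49036268-49036517, plus strand: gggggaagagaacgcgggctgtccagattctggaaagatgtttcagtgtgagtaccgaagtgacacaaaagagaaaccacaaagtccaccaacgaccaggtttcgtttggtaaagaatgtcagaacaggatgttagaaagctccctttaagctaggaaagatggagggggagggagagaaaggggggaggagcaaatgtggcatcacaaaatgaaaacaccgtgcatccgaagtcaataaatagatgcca
Spp1, chr5:104434861-104435110, plus strand: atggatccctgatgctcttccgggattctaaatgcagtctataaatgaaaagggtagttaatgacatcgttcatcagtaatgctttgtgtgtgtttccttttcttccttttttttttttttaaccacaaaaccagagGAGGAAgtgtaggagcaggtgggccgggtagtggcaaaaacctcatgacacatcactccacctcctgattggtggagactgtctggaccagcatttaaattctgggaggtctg
Trem2 holds the letters on the minus strand 40 to 35 bases upstream of its start, Spp1 holds them on the plus strand 113 to 108 bases upstream, and the window of Gpnmb has no match. Promoters were listed for 7 of the 10 genes, and GAGGAA was present in at least 1 window of 3 of these 7 (Trem2, Spp1 and Apoe). Of all 32851 promoter windows of this length, from 27025 genes, 23.3% held it. These figures are not alike, because a gene counts if any of its windows matches, and Spp1 and Apoe have more than 1. Another listed window of Spp1, chr5:104435942-104436191, has no match. CATGTG, letters of the M-box read by MITF, was present for Cd9 alone (12.3% of all windows), and CACGTG (6.02% of all windows) and TGAGTCA, an AP-1 site (4.46% of all windows), were present for none of the 7. Both strands were searched for all 4 motifs, and CACGTG reads the same on both. The promoters of Tyrobp, Lpl and Fabp5 were not analysed here.

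The receptor and its adapter both rose over 30-fold after CAI. Trem2 stood at 8.09, 8.19 and 8.50 CPM in Sham replicates 1, 2 and 3 and at 422, 263 and 207 CPM in injured VEGFR3 fl/fl replicates 1, 2 and 3. Each injured library lay far above each Sham library, and the injured libraries spread more widely than the Sham libraries did. The log2 fold change was 5.17 ± 0.28 (SE, n = 3 and 3, 36.0-fold, edgeR adjusted p = 8.34e-07). Tyrobp, which encodes the adapter through which TREM2 and several other myeloid receptors signal, went from 11.1, 11.1 and 12.9 CPM to 502, 330 and 348 CPM. Its log2 fold change was 5.07 ± 0.18 (33.6-fold, adjusted p = 8.60e-08). Per Tyrobp, the Trem2 count was 0.659 to 0.740 in Sham and 0.597 to 0.841 in injured VEGFR3 fl/fl libraries, and these ranges overlapped (exact two-sided permutation test, p = 0.8). It was 0.617, 0.548 and 0.455 in the libraries labelled iLECko, all below every Sham library (exact permutation p = 0.1, the smallest that 3 against 3 libraries allow), and overlapped with injured VEGFR3 fl/fl (p = 0.2).

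Of the 10 genes, 8 rose after CAI (adjusted p under 0.05 and over 1.5-fold) and 0 fell (0 also at an unadjusted p under 0.05 and by DESeq2), against 22.1% of all 15010 genes tested called higher and 17.5% called lower. The median log2 fold change of the 10 was 3.00, against 0.01 for all genes tested. The 10 genes and the lists below were chosen with earlier results known, so shares of all genes are a background, not a test. In bulk RNA a gain of cells that express a gene and a gain of its RNA per cell cannot be told apart.

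Among the genes of lipid handling, Fabp5, a chaperone that carries fatty acids inside the cell, had the largest change of the 10. It stood at 6.87, 8.98 and 7.21 CPM in Sham and at 1066, 731 and 673 CPM after CAI, a log2 fold change of 6.74 ± 0.23 (107-fold, adjusted p = 7.30e-08). Apoe, the lipoprotein component that carries cholesterol out of macrophages and is itself bound by TREM2, was abundant before injury, at 6705, 7364 and 6538 CPM, and reached 21730, 16680 and 13440 CPM. Its log2 fold change was 1.33 ± 0.18 (2.52-fold, adjusted p = 0.000232). Apoe took 0.695% to 0.774% of all counts in Sham and 1.30% to 1.96% after CAI, where it ranked 1 among all genes in each of the 3 libraries. Plin2, which coats lipid droplets, rose from 63.0, 77.6 and 68.9 CPM to 213, 189 and 194 CPM (log2 fold change 1.51 ± 0.11, adjusted p = 3.96e-06). Lpl, the lipase that frees fatty acids from lipoprotein triglyceride, did not pass the test. It stood at 219, 196 and 229 CPM in Sham and at 186, 287 and 278 CPM after CAI, where the groups overlapped (log2 fold change 0.22 ± 0.22, 95% interval -0.28 to 0.73, adjusted p = 0.411).

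Among the secreted and surface proteins, Spp1, which encodes the matrix and cytokine protein osteopontin, stood at 217, 283 and 272 CPM in Sham and at 1971, 2423 and 4236 CPM after CAI (log2 fold change 3.48 ± 0.33, 11.2-fold, adjusted p = 2.35e-05). Lgals3, the galectin that binds damaged lysosomes and cell debris, went from 84.8, 107 and 88.8 CPM to 1534, 1038 and 713 CPM (log2 fold change 3.55 ± 0.28, adjusted p = 7.65e-06). Cd9, a tetraspanin of the cell surface and of extracellular vesicles, went from 83.5, 103 and 84.0 CPM to 670, 360 and 512 CPM (log2 fold change 2.52 ± 0.21, adjusted p = 1.08e-05). In all 3 genes the lowest injured library lay over 3-fold above the highest Sham library. Spp1 was highest in injured replicate 3, where Lgals3 and Trem2 were lowest.

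**Figure D1:**
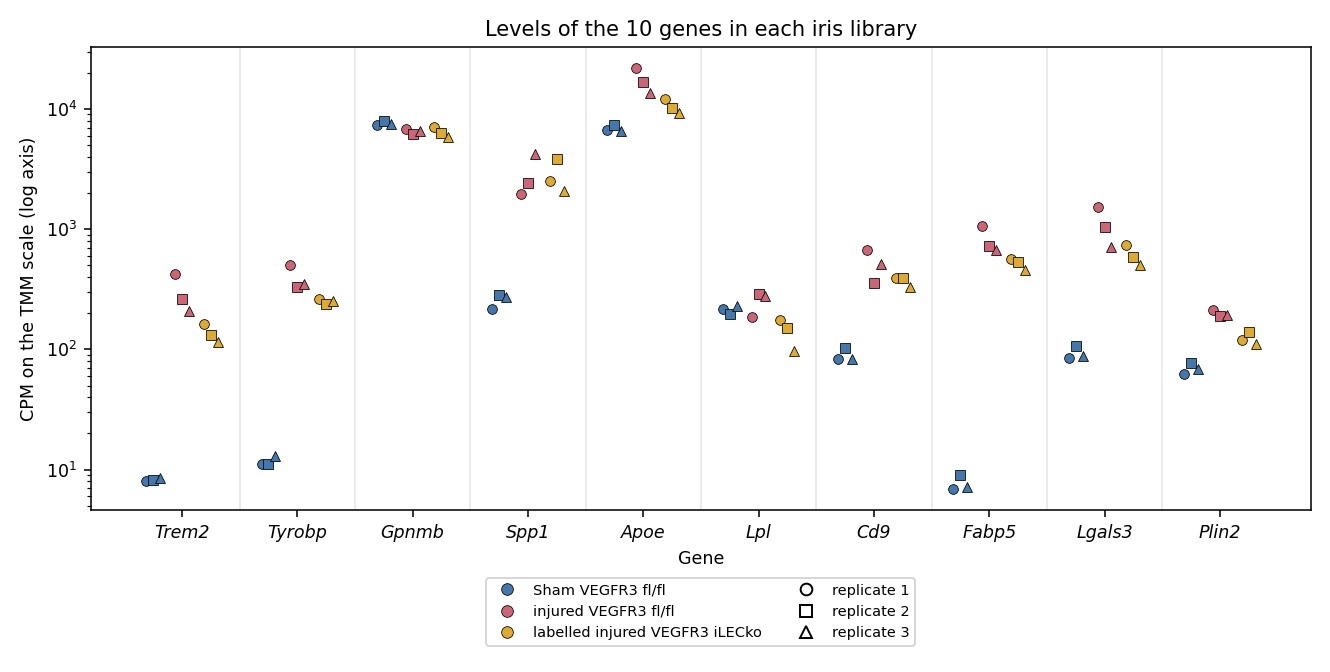
CPM of the 10 genes on a log axis, with 1 point for each of the 9 libraries, coloured by group and shaped by replicate number. The blue Sham points of Trem2, Tyrobp and Fabp5 lie between 6.87 and 12.9 CPM and far below all injured points, whereas the points of Gpnmb stay between 5815 and 7872 CPM in all groups.

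Gpnmb, the glycoprotein of melanosomes and lysosomes that gives lipid-associated macrophages one of their most used markers, did not pass the test after CAI. It stood at 7344, 7872 and 7433 CPM in Sham, where it ranked 4 among all genes in each library and took 0.790% to 0.828% of the counts, and at 6794, 6177 and 6503 CPM after CAI. Every injured library was below every Sham library, but the log2 fold change was -0.22 ± 0.11 (95% interval -0.47 to 0.03, adjusted p = 0.117). Pigment cell markers moved the other way from the macrophage markers in the same libraries. All 8 of the pigment cell list fell (median log2 fold change -2.47), most of all Slc45a2, a melanosome transporter (-3.25 ± 0.30, adjusted p = 1.84e-05), and their summed level was 23120 to 24720 CPM in Sham and 3316 to 5701 CPM after CAI. Pmel, which encodes the fibril protein of melanosomes and is related to Gpnmb, fell from 8577, 9222 and 8121 CPM to 599, 875 and 994 CPM (log2 fold change -3.39 ± 0.30, adjusted p = 1.32e-05). Mitf, the transcription factor of pigment cells that is known to act on Gpnmb, fell from 137, 142 and 147 CPM to 42.5, 56.3 and 47.9 CPM (log2 fold change -1.54 ± 0.10, adjusted p = 2.92e-06). The ratio of Gpnmb to Pmel was 0.854 to 0.915 in Sham and 6.54 to 11.3 in injured VEGFR3 fl/fl libraries, with no overlap (exact permutation p = 0.1). This separation restates the fall of Pmel beside the small change of Gpnmb and adds no separate test. The part of each cell type in the level of Gpnmb was not tested.

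**Figure D2:**
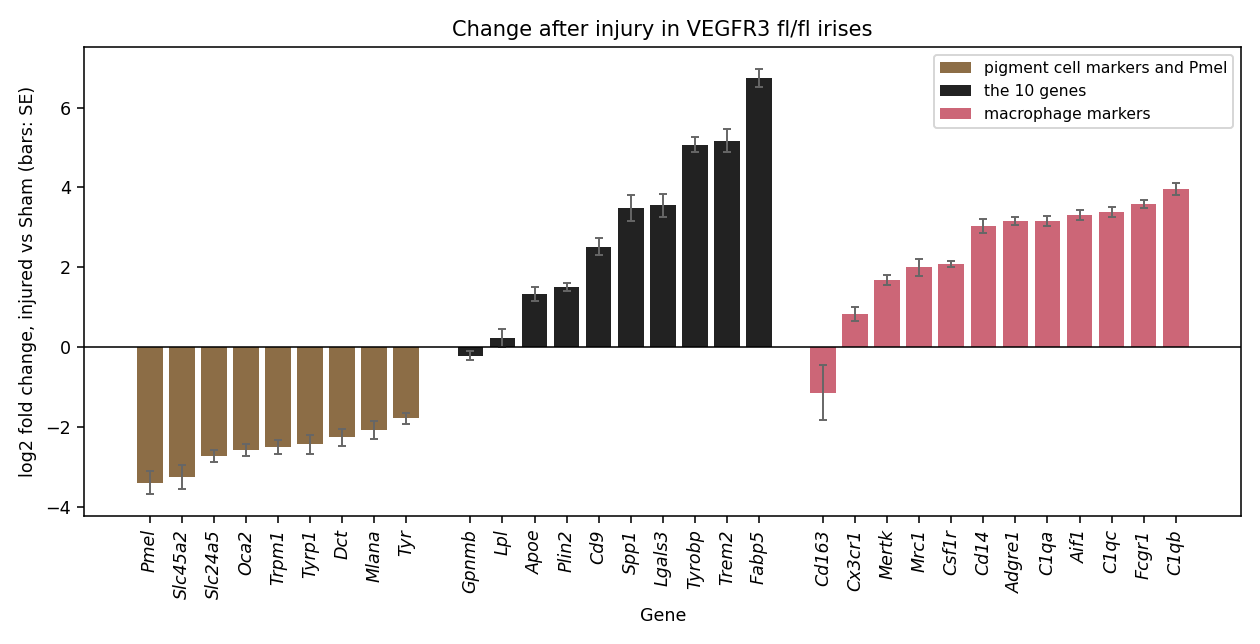
Log2 fold changes of injured against Sham VEGFR3 fl/fl libraries (bars, with SE as error bars) for the 8 pigment cell markers and Pmel, the 10 genes and 12 macrophage markers. All pigment bars lie below 0, Gpnmb and Lpl lie near 0, and 11 of the 12 macrophage bars lie above 0, with Cd163 at -1.14.

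The macrophage markers rose as well, so each gene was set against them in the same library. Of the 12 markers, which include Adgre1 (F4/80; log2 fold change 3.15 ± 0.10, adjusted p = 5.15e-08) and Csf1r, the receptor for the macrophage growth factor (2.07 ± 0.08, adjusted p = 1.07e-07), 11 rose after CAI and 0 fell (0 at an unadjusted p under 0.05 and by DESeq2; median 3.09). C1qb, a chain of complement C1q, rose most (3.96 ± 0.14, adjusted p = 7.90e-08). Relative to the mean of the 12 on the log2(CPM + 0.5) scale, 5 of the 10 genes were higher in every injured VEGFR3 fl/fl library than in every Sham library. Fabp5 was higher by 4.29, Trem2 by 2.68, Tyrobp by 2.65, Lgals3 by 1.14 and Spp1 by 1.07. Another 4 were lower in every library, namely Gpnmb at -2.56, Lpl at -2.14, Apoe at -1.04 and Plin2 at -0.84, and Cd9 overlapped at 0.13. The same was so of 2.97% (higher) and 91.6% (lower) of all genes tested. Against Adgre1 alone, 3 genes remained higher in every library (Fabp5 by 3.52, Trem2 by 1.91 and Tyrobp by 1.88), and Spp1 (0.30) and Lgals3 (0.37) overlapped. The share of all genes against Adgre1 alone is not given here. Each exact permutation p without overlap was 0.1, the smallest possible.

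**Figure D3:**
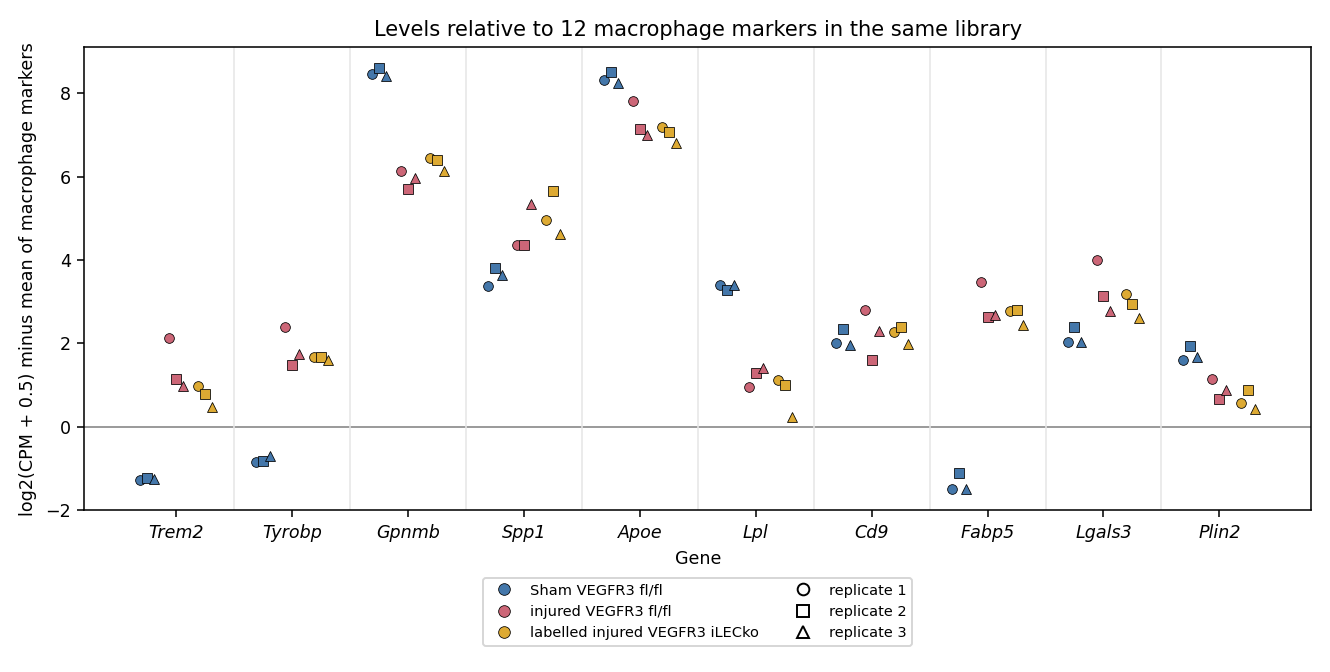
Log2(CPM + 0.5) of each of the 10 genes minus the mean of 12 macrophage markers in the same library, with 1 point for each library. Fabp5, Trem2 and Tyrobp pass from below 0 in Sham to above 0 in all 6 injured libraries, and Gpnmb, Apoe, Lpl and Plin2 move down.

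In the injured libraries labelled iLECko, all 10 genes had a log2 fold change below 0 against injured VEGFR3 fl/fl (median -0.68, against -0.01 for all genes), but only Plin2 passed the test. Thus 1 of 10 was called lower and 0 higher, against 0.466% and 0.573% of all genes tested. At an unadjusted p under 0.05, 8 of the 10 were lower and 0 higher. The share of all genes at that looser limit is not given here, and the shares above do not apply to it. Plin2 stood at 120, 139 and 112 CPM in the libraries labelled iLECko and at 213, 189 and 194 CPM in injured VEGFR3 fl/fl, with no overlap. Its log2 fold change was -0.68 ± 0.11 (0.622-fold, 95% interval -0.92 to -0.45, adjusted p = 0.0278). This call was lost with the replicate block (adjusted p = 0.0627), with the 6 injured libraries alone (0.101) and with the Y-linked level as a covariate (0.250). It was also lost without Sham replicate 1 (0.0576) or 3 (0.0664) or any library labelled iLECko (0.0623 to 0.103). With the block, the 6 libraries and the covariate the log2 fold change of Plin2 was -0.69, -0.68 and -0.65. Few genes of all those tested passed there: 11 higher and 13 lower with the block, 0 and 0 with the 6 libraries, 0 and 2 with the covariate. Without iLECko replicate 2 it was 0 and 0. The DESeq2 Wald test called 7 of the 10 lower (Apoe, Fabp5, Lgals3, Lpl, Plin2, Trem2 and Tyrobp), against 1.88% of all genes called lower by that test.

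The receptor and its adapter came just short of the threshold by edgeR. Trem2 stood at 161, 131 and 115 CPM in replicates 1, 2 and 3 labelled iLECko, all below the lowest injured VEGFR3 fl/fl library at 207 CPM, with a log2 fold change of -1.13 ± 0.23 (0.456-fold, 95% interval -1.66 to -0.61, adjusted p = 0.0512). It passed without injured VEGFR3 fl/fl replicate 1 (-0.79, adjusted p = 0.0438) and without replicate 3 (-1.34, adjusted p = 0.0287). With the Y-linked level as a covariate it was -0.62 (adjusted p = 0.495). Tyrobp stood at 261, 239 and 253 CPM, also below each injured VEGFR3 fl/fl library, with a log2 fold change of -0.65 ± 0.15 (adjusted p = 0.0621, and -0.46 with 0.537 under that covariate). Relative to the 12 macrophage markers, Trem2 was lower by 0.67 in the mean (-0.67, exact permutation p = 0.1), and 9 of the 10 genes overlapped. For Trem2 the groups only just separated. It was at 2.134, 1.153 and 0.9896 in injured VEGFR3 fl/fl replicates 1, 2 and 3, and at 0.4737 to 0.988 in the libraries labelled iLECko. Among all genes, 0.473% were lower and 52.6% higher in every such library on this scale. Against Adgre1 or Csf1r alone, 0 of the 10 were lower and 1, Gpnmb, was higher in every library. Both references had negative log2 fold changes in this comparison themselves, and shares of all genes against them are not given here.

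Of the other lipid genes, Apoe stood at 12000, 10100 and 9297 CPM in the libraries labelled iLECko (log2 fold change -0.72 ± 0.18, adjusted p = 0.0720), Fabp5 at 559, 528 and 454 CPM (-0.68 ± 0.18, adjusted p = 0.0772) and Lpl at 177, 150 and 96.8 CPM (-0.83 ± 0.22, adjusted p = 0.0819). None of these 3 overlapped with injured VEGFR3 fl/fl, and none passed the edgeR test. The share of all genes without overlap between the injured groups is not given here. The lack of overlap of these 3, or of Plin2, Trem2 and Tyrobp, thus has no background to be read against. Lgals3 at 740, 584 and 505 CPM (-0.84 ± 0.26, adjusted p = 0.104) and Cd9 at 392, 395 and 329 CPM (-0.47 ± 0.20, adjusted p = 0.194) overlapped with it. Spp1 at 2528, 3798 and 2064 CPM had a log2 fold change of -0.04 ± 0.30, and its interval of -0.72 to 0.64 leaves room for a change of over 1.5-fold either way. Gpnmb at 7140, 6346 and 5815 CPM had -0.01 ± 0.11, with a narrower interval of -0.26 to 0.24. With the Y-linked level as a covariate the log2 fold change was -0.38 for Apoe (adjusted p = 0.648), -0.40 for Fabp5 (0.648) and -0.25 for Lgals3 (0.832), each over 1.5 times smaller. It was -0.94 for Lpl (0.410), -0.46 for Cd9 (0.701) and -0.55 for Spp1 (0.669).

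**Figure D4:**
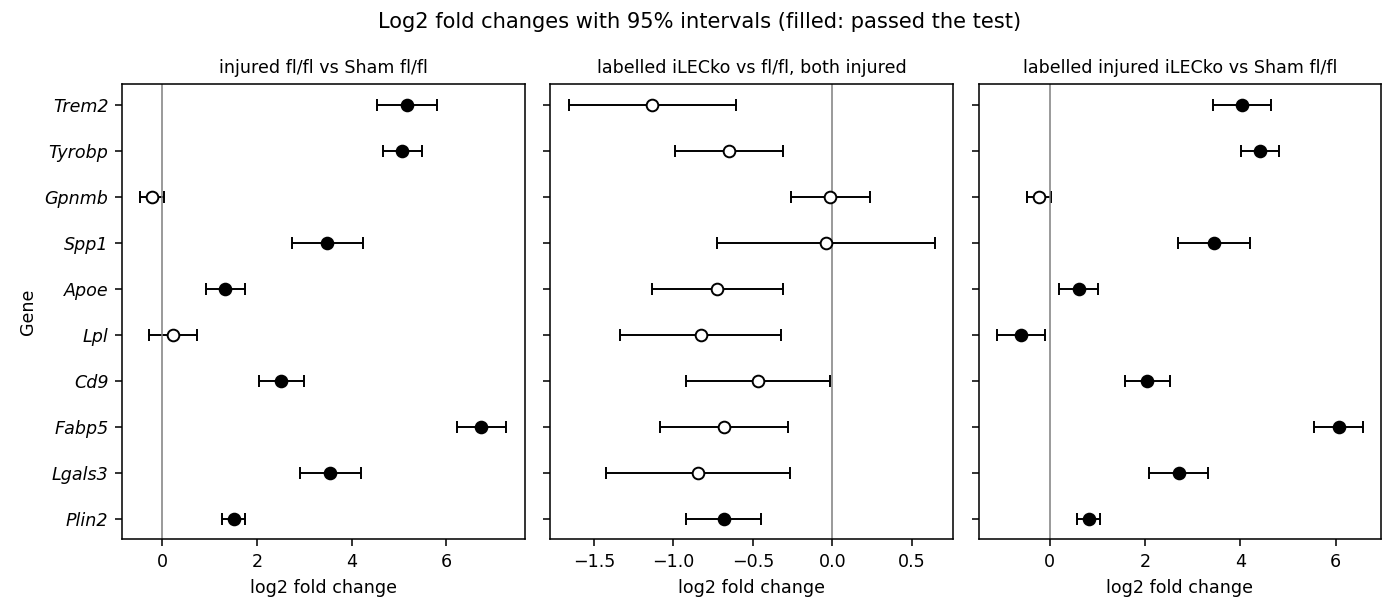
Log2 fold changes (points) with 95% intervals (bars) of the 10 genes in the 3 comparisons, each on its own axis, with filled points where the gene passed the test (adjusted p under 0.05 and over 1.5-fold). After CAI 8 genes are filled to the right of 0, and in the middle panel all 10 points lie below 0 with Plin2 alone filled.

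Macrophage markers and the Y-linked level moved with this comparison. Of the 12 macrophage markers, 7 were called lower in the libraries labelled iLECko (Adgre1, Aif1, C1qa, C1qb, C1qc, Cx3cr1 and Fcgr1), and Cd14, the co-receptor for bacterial lipopolysaccharide, was called higher (0.86 ± 0.16, adjusted p = 0.0407). Adgre1 had a log2 fold change of -0.60 ± 0.09 (adjusted p = 0.0278). Of 17 alternatives, 10 ended the call for Adgre1, 11 that for Cd14 and 2 that for Fcgr1 (-1.03 ± 0.08, adjusted p = 0.00861), the high-affinity IgG receptor. The replicate block ended the calls for Adgre1 (adjusted p = 0.0721), C1qa (0.0627), C1qb (0.0565), C1qc (0.0627), Cx3cr1 (0.0510) and Cd14 (0.0780). The Y-linked covariate ended 7 of the 8 calls, and Fcgr1 remained (adjusted p = 0.0305). Among all genes tested, 11 were called higher and 13 lower with the block, and 0 and 2 with the covariate. Csf1r had -0.51 ± 0.07 (adjusted p = 0.0263), under the 1.5-fold limit. The median of the 12 was -0.68. Their summed level was 1790 to 1970 CPM in the libraries labelled iLECko and 2763 to 3163 CPM in injured VEGFR3 fl/fl. Injured VEGFR3 fl/fl replicate 3 shared the low Y-linked level of the libraries labelled iLECko. Against this library alone, which gives no test, 8 of the 10 genes were lower in every library labelled iLECko, as were 29.6% of all genes tested. The exceptions were Gpnmb and Lgals3, and Spp1 and Cd9, which overlapped between the whole groups, were among the 8. The ratio of the iLECko mean to this library was 0.508 for Lpl, 0.637 for Plin2, 0.654 for Trem2, 0.660 for Spp1, 0.721 for Tyrobp, 0.726 for Cd9, 0.764 for Fabp5, 0.779 for Apoe, 0.855 for Lgals3 and 0.989 for Gpnmb. This library held the highest Spp1 of all 9, and without it the log2 fold change of Spp1 between the injured groups was 0.35. The part of macrophage number and of the makeup of the pools in these differences was not tested.

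Compared with Sham, the libraries labelled iLECko had 8 of the 10 genes higher and 1 lower, against 19.7% and 15% of all genes tested. This comparison shares its Sham libraries with that of CAI in VEGFR3 fl/fl mice. Fabp5 (log2 fold change 6.06 ± 0.23), Tyrobp (4.42 ± 0.18), Trem2 (4.04 ± 0.27), Spp1 (3.44 ± 0.33), Lgals3 (2.70 ± 0.27), Cd9 (2.05 ± 0.21) and Plin2 (0.82 ± 0.11) were higher under every alternative tried. Apoe was higher by 0.61 ± 0.18 (adjusted p = 0.0190), and lost this call with upper quartile scaling (0.58) or library size alone (0.50) and without Sham replicate 1 (adjusted p = 0.0635) or 3 (0.0654) or iLECko replicate 1 (0.0646). Lpl was lower than in Sham (-0.60 ± 0.22, adjusted p = 0.0452), a call that 8 of 17 alternatives ended, among them the replicate block (adjusted p = 0.0749), the Y-linked covariate (0.154) and leaving out any Sham library (0.0654 to 0.118), iLECko replicate 2 (0.0790) or 3 (0.120), or injured VEGFR3 fl/fl replicate 3 (0.0539). Gpnmb did not pass here either (-0.23 ± 0.11, adjusted p = 0.105).

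Within the injured groups, part of the genes differed between libraries in the same sense. Trem2 was highest in replicate 1 and lowest in replicate 3 of both injured groups. Of the 9 other genes, 3 (Apoe, Fabp5 and Lgals3) had this order of Trem2, as did 4.98% of all genes tested. Replicate numbers do not pair the libraries of these groups, so the shared order is a description only. Spp1 was highest in injured VEGFR3 fl/fl replicate 3 and in iLECko replicate 2. The ratio of Apoe to Trem2 counts was 769 to 899 in Sham, 51.5 to 64.8 in injured VEGFR3 fl/fl and 74.5 to 80.8 in the libraries labelled iLECko, with no overlap between any groups (exact permutation p = 0.1 each). Its separation from Sham restates the unlike rises of both genes given above. The share of gene pairs that separate is not given here. The ratio of Spp1 to Trem2 was 26.8 to 34.5 in Sham, 4.67, 9.20 and 20.4 in injured VEGFR3 fl/fl and 15.7 to 29.0 in the libraries labelled iLECko, where both injured groups overlapped (exact permutation p = 0.3).

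Bone markers, beside Spp1 because bone cells also make it, varied widely between the injured libraries. Ibsp, which encodes bone sialoprotein, was at 0 in all Sham libraries, at 0.182, 0.761 and 83.6 CPM in injured VEGFR3 fl/fl replicates 1, 2 and 3, and at 45.5, 5.38 and 2.88 CPM in the libraries labelled iLECko. The summed bone list was 148 to 163 CPM in Sham, 37.7, 74.7 and 287 CPM in injured VEGFR3 fl/fl and 309.8, 123 and 82.3 CPM in the libraries labelled iLECko. The library with the most Ibsp and the most Spp1 was the same in injured VEGFR3 fl/fl (replicate 3) but not in the libraries labelled iLECko, where replicate 1 had most Ibsp and replicate 2 most Spp1. Of 6 bone markers tested, 3 rose after CAI and 1 fell, namely Bglap2, an osteocalcin gene (-1.98 ± 0.64, adjusted p = 0.0234), and Bglap was too low to be tested. The part of bone cells in the level of Spp1 was not tested.

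Genes listed as carrying or ending the TREM2 signal rose after CAI, as did the receptor and the macrophage markers. The 14 genes listed encode other adapters, cytosolic signalling proteins and 2 surface proteases (Adam10 and Adam17). Of these 14, 13 rose after CAI and 0 fell (1 at an unadjusted p under 0.05, 0 by DESeq2), with a median log2 fold change of 3.11. The 12 macrophage markers, of which 11 rose, had a median of 3.09, and 22.1% of all genes tested were called higher and 17.5% lower. The use of these proteins by TREM2 or by other receptors was not tested. Syk, the kinase recruited by TYROBP, went from 5.71, 4.91 and 5.74 CPM to 109, 130 and 130 CPM (4.49 ± 0.10, adjusted p = 1.79e-08). Hcst, an adapter that couples to PI3K beside TYROBP, was at 0 in 2 Sham libraries and at 0.0554 CPM in the other, and at 4.55, 2.99 and 3.56 CPM after CAI. Of the proteases that shed TREM2 from the surface, Adam17 rose (1.09 ± 0.08, adjusted p = 5.01e-06) and Adam10 did not pass (-0.40 ± 0.11, under 1.5-fold). In the libraries labelled iLECko, 1 of the 14 was called lower, Ptpn6, the phosphatase that restrains SYK (-0.61 ± 0.11, adjusted p = 0.0399, a call that 10 of 17 alternatives ended, the block with 0.0719), while DESeq2 called 4 lower (Ptpn6, Blnk, Lat2 and Card9). Syk did not pass (-0.19 ± 0.09, adjusted p = 0.214). The other TREM receptors of the list, Trem1, Trem3, Treml1, Treml2 and Treml4, were each called higher after CAI from Sham levels of at most 1.16 CPM. Treml1 was at 0 in Sham and at 1.27, 0.703 and 0.632 CPM after CAI. Trem1, the amplifying receptor of neutrophils and monocytes, differed from Trem2 in its pattern over libraries. It stood at 2.97, 20.9 and 18.2 CPM in injured VEGFR3 fl/fl replicates 1, 2 and 3 and at 22.1, 36.2 and 45.2 CPM in the libraries labelled iLECko (1.30 ± 0.56, adjusted p = 0.196).

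Further genes of lipid-associated and foam macrophages moved with the 10. Of 26 such genes, 23 rose after CAI and 2 fell (median 1.78), and 0 were called by edgeR in the libraries labelled iLECko, where the median was -0.32 (14 lower and 1 higher at an unadjusted p under 0.05, and 5 lower, namely Ctsz, Abcg1, Fabp4, Cd68 and Igf1, and Ch25h higher by DESeq2). Fabp4, another fatty acid chaperone of macrophages and fat cells, had the largest rise, from 0.332, 0.452 and 0.225 CPM to 151, 50.5 and 113 CPM (8.26 ± 0.57, adjusted p = 3.35e-06). Cd68, a glycoprotein of macrophage lysosomes, went from 39.9, 46.4 and 37.0 CPM to 788, 585 and 633 CPM (4.02 ± 0.16) and stood at 478, 450 and 379 CPM in the libraries labelled iLECko (-0.62 ± 0.14, adjusted p = 0.0612). The 2 that fell were Syngr1 (-1.16 ± 0.09), which encodes a vesicle protein, and Igf1 (-0.82 ± 0.17), a growth factor also made by stromal cells. Fat cells also make Fabp4 and Lpl. Of 7 fat cell markers listed, 5 were among the genes counted, and Lep and Cfd were not. The 5 were nearly absent: none had over 5 counts in any library, and their summed level was at most 0.508 CPM.

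Lipid droplet genes other than Plin2 did not share its course. Of 13 tested, 1 rose after CAI and 4 fell (median -0.29). Hilpda, an inhibitor of droplet lipolysis, rose (1.69 ± 0.20, adjusted p = 7.82e-05). Mgll, which cleaves monoglycerides, fell from 5007, 5974 and 5559 CPM to 1007, 1056 and 1132 CPM (-2.37 ± 0.19, adjusted p = 7.72e-06). Plin4, a droplet coat protein related to Plin2, fell from 122, 107 and 123 CPM to 21.8, 26.8 and 30.4 CPM (-2.15 ± 0.14, adjusted p = 1.92e-06), and was called higher in the libraries labelled iLECko, at 47.6, 44.1 and 37.1 CPM (0.70 ± 0.13, adjusted p = 0.0432). Of 17 alternatives, 12 ended this call of Plin4, among them the block (adjusted p = 0.0923) and the Y-linked covariate (0.428). In the libraries labelled iLECko, 11 of the 13 had a log2 fold change above 0 against injured VEGFR3 fl/fl and 2 below (median 0.51). At an unadjusted p under 0.05, 6 were higher and 0 lower, and DESeq2 called Plin4 and G0s2 higher. Plin2 and Plin4 thus had calls of opposite sign in both comparisons.

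Of 15 genes of lipoprotein handling, 9 rose and 2 fell after CAI (median 0.91). Gpihbp1, which anchors lipoprotein lipase on capillaries, rose from 0.499, 0.621 and 0.676 CPM to 6.74, 19.7 and 26.1 CPM (4.86 ± 0.54, adjusted p = 5.74e-05), while Lpl itself did not pass. Vldlr, a receptor for triglyceride-rich lipoproteins and APOE, fell (-1.21 ± 0.17, adjusted p = 0.000238).

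Relatives of single members did not move as families. Among 4 other fatty acid binding proteins tested, Fabp4 rose, and Fabp3, the form of muscle, fell (-2.49 ± 0.21, adjusted p = 1.09e-05). Among 6 other galectins, 2 rose and 2 fell, with the largest rise in Lgals1 (adjusted p = 1.75e-05), from 226, 282 and 235 CPM to 768, 728 and 608 CPM, and the largest fall in Lgals12 (-1.93 ± 0.35, adjusted p = 0.00126). Among 8 other tetraspanins, 3 rose and 1 fell. Cd53, a tetraspanin of leukocytes, had the largest rise (4.75 ± 0.12, adjusted p = 1.87e-08), and Tspan33 fell (-1.77 ± 0.19, adjusted p = 5.28e-05). Of 8 receptor subunits that bind osteopontin, 6 rose and 1 fell, with Itgb3, an integrin subunit of osteoclasts and platelets, at 3.99 ± 0.42 (adjusted p = 4.09e-05) and Itga9 at -1.27 ± 0.18 (adjusted p = 0.000279). In the family of MITF, Tfec was the gene that rose (0.73 ± 0.20, adjusted p = 0.0122), and Tfeb and Tfe3 stayed under 1.5-fold. In these 5 lists edgeR called 0 genes in the libraries labelled iLECko. At an unadjusted p under 0.05, at most 3 genes of a list were lower and at most 1 higher, and DESeq2 called Fabp4 and Cd37 lower.

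Markers of other cells of the iris moved with CAI too. Called higher and lower were 4 and 1 of 7 endothelial, 5 and 0 of 7 fibroblast, 2 and 4 of 8 iris, 0 and 5 of 7 Schwann cell, 0 and 6 of 7 epithelial and 1 and 2 of 5 striated muscle markers. Among the largest rises and falls of these lists were those of Pecam1 (2.61 ± 0.11) and Cldn5 (-0.79 ± 0.15), both of endothelial junctions, of Thy1 (4.32 ± 0.41) among fibroblast markers, of Foxc2 (2.88, 2.49 and 3.27 to 17.7, 10.6 and 11.5 CPM) and the smooth muscle myosin Myh11 (-3.34 ± 0.20) among iris markers, of the keratin gene Krt5 (-4.13 ± 1.07) and of Myh2 (2.75 ± 1.05) among muscle markers. Ckm, the muscle creatine kinase, fell from 12.9, 16.6 and 13.2 CPM to at most 0.115 CPM. By edgeR 0 of the markers of these 6 lists and of the pigment cell list were called in the libraries labelled iLECko against injured VEGFR3 fl/fl. At an unadjusted p under 0.05, 4 of 8 pigment cell markers were higher there, and at most 2 markers of another list in either direction, and DESeq2 called 2 epithelial markers, Dsg1a and Perp, higher. Their part in the levels of Cd9, Lpl and Apoe, which non-myeloid cells also express, was not tested.

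Levels of different genes can be compared only per length. Per kilobase of the longest annotated transcript, Apoe had 4879 ± 310 CPM per kb (SD, n = 3) in Sham and ranked 2 of 14635 genes, and Gpnmb had 2040 ± 76.4 and ranked 8. Trem2 had 1.73 ± 0.05 in Sham (rank 11265), 62.2 ± 23.3 in injured VEGFR3 fl/fl (rank 1057) and 28.4 ± 4.89 in the libraries labelled iLECko (rank 2386). Tyrobp stood above Trem2 in each group, at 19.6 ± 1.76, 659 ± 158 and 420 ± 18.8 CPM per kb. In injured VEGFR3 fl/fl the order from the highest mean was Apoe (12270), Spp1 (1909), Gpnmb (1754), Lgals3 (772), Tyrobp (659), Cd9 (419), Fabp5 (254), Plin2 (105), Trem2 (62.2) and Lpl (60.9). The ranges over the 3 libraries overlapped for the neighbours Spp1 and Gpnmb, Lgals3 and Tyrobp, Cd9 and Fabp5, and Trem2 and Lpl. With the median transcript length the values in injured VEGFR3 fl/fl were over 1.5 times higher for Apoe (21150), Gpnmb (3543), Lgals3 (1275), Fabp5 (390), Plin2 (281), Trem2 (278) and Lpl (103). Gpnmb then stood above Spp1 (2040), and the rest of the order was as before.

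The genes whose log2 CPM followed a member most closely over the 9 libraries were sought among 14212 genes by Pearson's r, as a description with no test, since the groups alone set much of it. For Trem2 they were Lat2, an adapter of myeloid immunoreceptors, Lpxn and Myo1e (r = 0.997 each). Lat2 went from a mean of 2.23 CPM in Sham to 44.0 CPM after CAI and 22.1 CPM in the libraries labelled iLECko. For Spp1 they were Ccl6, a chemokine of myeloid cells (r = 0.996), Olr1, a receptor for oxidized lipoprotein (r = 0.994), and Rasgrp1 (r = 0.992). Olr1 was at 0 in Sham and at a mean of 1.79 CPM after CAI and 1.57 CPM in the libraries labelled iLECko. For Gpnmb they were Ctdsp1 (r = 0.987), Cog7 (r = 0.973) and Armc5 (r = 0.973), which differed by less than 1.5-fold between any groups.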

How the data were processed

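Bulk RNA-Seq of pooled irises was taken from 9 deposited tables, 1 per library, which hold estimated counts per gene, not normalized by the authors. Per the submitters' processing notes, reads of 50 bases were aligned to mm10, and HISAT2 2.0.4, Bowtie2 2.2.5 and DESeq2 1.4.5 were used. The program that estimated the counts is not given in the sources used here, and neither is the use of strand. A combined table with the same values and group averages was not used. The study's TPM filter needs values not held in these tables.

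Each count was rounded to an integer (R 4.3.3). Genes were selected by filterByExpr (15010 of 18349), scaled by TMM, and fitted with all 9 libraries and group as the only term by the quasi-likelihood test of edgeR 4.0.16, and p-values of a comparison were adjusted by Benjamini-Hochberg across its genes. Genes were called at an adjusted p under 0.05 with over 1.5-fold change. Levels relative to macrophage markers used a pseudocount of 0.5 CPM and exact two-sided permutation tests. Replicates differed beyond counting noise (chi-square per degree of freedom 5.13 to 76.2). p-values measure the spread between pooled libraries. On simulated data for injured against Sham libraries (14865 genes), 169 of 200 genes changed 3-fold were recovered (84.5%), 0 in the wrong direction, with 6 false calls.

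The genes and gene lists were chosen with earlier results of these data known. Beside the 10 genes, the text names from each list the genes called between the injured groups and the largest called rise and fall after CAI, always Hcst, Syk, Pmel, Mitf, Adgre1, Csf1r, Cd68 and Ibsp, and the 3 genes most like Trem2, Gpnmb and Spp1. Flt4 and other genes outside this rule (such as Adam10, Trem1, Tfeb and those that DESeq2 alone called) were named after their values were seen. Gene positions were taken from GRCm38 annotation and promoters from RefSeq. Alternatives were RLE, upper quartile and library size scaling, no filter, DESeq2 1.42.0, the compared libraries alone, a replicate block, a Y-linked covariate, other macrophage references, median transcript length and leaving out each library.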

Additional observations from a re-analysis of the deposited data

How the results depend on the processing

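The 8 rises after CAI, and the lack of a call for Gpnmb and Lpl, held under all 17 alternative fits, with Trem2 between 4.83 and 5.38 and Fabp5 between 6.51 and 6.87 on the log2 scale. Scaling by library size alone moved the median of all genes to -0.16. Between the libraries labelled iLECko and injured VEGFR3 fl/fl, the number of the 10 genes called lower was 7 by DESeq2, 0 with the 6 libraries alone, 0 with the replicate block, 0 with the Y-linked covariate and 0 to 4 leaving out each library in turn. It was 0 without Sham replicate 1 or 3 or any library labelled iLECko, 2 without injured VEGFR3 fl/fl replicate 1 or 2, and 4 without replicate 3. Among all genes tested, 282 were called lower by DESeq2, 0 with the 6 libraries, 13 with the block and 2 with the covariate. Without Sham replicates 1 and 3 these were 16 and 8, and without iLECko replicates 1, 2 and 3 they were 6, 0 and 17. Without injured VEGFR3 fl/fl replicates 1, 2 and 3 they were 57, 149 and 107. Replicate numbers do not pair the samples: correlations of same-numbered libraries ran from -0.387 to 0.131, and 2 of 9 libraries were closest to their own number. The block changed no call after CAI. Against Sham, the 1 gene called lower in the libraries labelled iLECko (Lpl) became 0 with the block and with the Y-linked covariate, and ran from 0 to 1 leaving out each library. Gpnmb and Spp1, not called between the injured groups, changed sign to 0.0506 and 0.0156 with library size alone. Leaving out each library, Gpnmb ran from -0.0944 to 0.0565 (above 0 without iLECko replicate 3 or injured VEGFR3 fl/fl replicate 1), and Spp1 from -0.325 to 0.348 (above 0 without iLECko replicate 1 or 3 or injured VEGFR3 fl/fl replicate 3). Relative to macrophage markers, genes higher in every library after CAI were 3 with Adgre1 alone. Between the injured groups, genes lower in every library were 0 with Adgre1 or Csf1r alone and 1 to 3 leaving out each library, and genes higher were 1 with either and 0 to 1. Shares of all genes relative to these macrophage references are not given for these settings. The cause of these changes was not tested. With 3 pooled libraries a group, an exact permutation p cannot fall below 0.1.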
